A study of Solanum lycopersicum with 10 samples.

Results

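This account covers the response of wild type tomato leaves to systemic wounding, read from 5 of the 10 two-colour cDNA arrays of a study of the systemic leaf wound response. The 5 were chosen by their labels: 2 arrays of wild type systemic wounded leaves, each sampled from a wounded plant, and 3 arrays of wild type control leaves, each sampled from an unwounded plant. The other 5 arrays held leaves of plants with an antisense Rboh gene and enter only 1 alternative fit. Each array set total RNA of a leaf sample, in channel 2 per the labels, against a pooled RNA of every sample in the series, in channel 1. The pool therefore holds the compared samples themselves and also the antisense ones. Cultivar, plant age, the leaf wounded, the leaf sampled and the time after wounding are not stated in the labels used here. The labels number the replicates but do not say that they were separate plants, so the p-values speak only to array-to-array spread, part or all of which may be technical.

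When an insect chews one tomato leaf, undamaged leaves of the same plant also switch on defence genes. The classic pathway runs from the peptide systemin through jasmonate, a lipid hormone, to proteinase inhibitors that block digestion in the insect gut. Rboh genes encode NADPH oxidases that make reactive oxygen species, which act as a signal for some of these genes. Leaves far from the wound are said to respond systemically, the term used in the labels.

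The clone identifiers could not be turned into genes. Of 11153 rows tested, 0 had a name listed in RefSeq's gene table for assembly SLM_r2.1, and the files do not pair clones with genes. A list of 16 name patterns for wound response genes, such as proteinase inhibitors, prosystemin, lipoxygenase and allene oxide synthase, matched 0 rows. A list of 4 leaf marker patterns matched 2 rows, which carry a gene name in place of an identifier. Since a ratio to a pool of leaves shows no absolute level, these rows do not check the labelled tissue. Clones are therefore described by their values, by the prefix of their names and, for a few, by identifier.

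Values are log2 ratios of leaf sample to pool, with each array's median set to 0, so a value of 1 means 2-fold above the pool. Array medians before centring lay between 0.02 and 0.07. The interquartile range was 0.46 and 0.52 on wounded arrays 1 and 2, against 0.48, 0.48 and 0.77 on control arrays 1, 2 and 3. Control array 3 was the most widely spread of the 5. Signal over background was not analysed here, and precision is limited by having 5 arrays.

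The direction of the ratio is likely but not settled, because the labels name no dyes. A transcript found in 1 of 10 equally pooled samples can exceed the pool by at most 3.32 on the log2 scale, while it can fall below it without limit. The highest deposited value on the 5 arrays was 3.16 and the lowest -6.35. Values beyond 3.32 numbered 0 above the pool and 72 below it, with some on all 5 arrays. What follows reads each value as sample over pool. Turning the sign turns every direction below: higher and lower counts change places, and above and below the pool do too. The main counts are also printed that way. Among the 10 pairs of these 5 arrays the lowest correlation across clones was -0.10.

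Correlations between single arrays were low to moderate, within the groups as between them. Across the 11153 rows, which are not independent replicates, the wounded arrays correlated at Pearson's r = 0.43. The 3 pairs of control arrays gave 0.41 for arrays 1 and 2, 0.33 for arrays 1 and 3, and 0.20 for arrays 2 and 3. The 6 pairs of a wounded and a control array ran from -0.10 to 0.27. By Spearman's rho the wounded pair stood at 0.33, the control pairs at 0.14, 0.22 and 0.09 in the same order, and the 6 pairs between the groups from -0.11 to 0.29. So 3 of the 4 pairs within a group exceeded every pair between the groups by Pearson's r, and 1 of the 4 by rho. All these pairs share the same pool. With the called clones below left out, r was 0.41 for the wounded pair, 0.12 to 0.28 for the control pairs and -0.07 to 0.30 between the groups, and the ranges overlapped.

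Large differences between single arrays were mostly differences between the groups. At 8-fold or more, wounded array 1 differed from wounded array 2 at 0 clones. Control array 1 was at least 8-fold above control array 3 at 2 clones and below it at 20, the most for any pair of controls. In the 6 pairs of a wounded and a control array, the wounded array was at least 8-fold higher at 26 to 64 clones and at least 8-fold lower at 0 to 10. Differences of 2-fold were common between replicates as well, with wounded array 1 that far above wounded array 2 at 147 clones and below it at 229.

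Systemic wounding raised 42 clones in wild type leaves and lowered 1, at a limma adjusted p under 0.05. These 43 are 0.386% of the rows tested, with 0.377% higher and 0.00897% lower. The higher clones had a median log2 change of 3.90, which is 14.9-fold, and ran from 1.89 to 5.98, or 3.71-fold to 63.1-fold. Of the 42, 40 rose at least 4-fold, 27 at least 8-fold, 20 at least 16-fold and 6 at least 32-fold. With the sign turned, 1 clone is higher and 42 are lower. At an unadjusted limma p under 0.05 there were 376 higher and 218 lower clones, together 594 of the 11153 rows. That share is close to the 0.05 that such a threshold passes where nothing differs.

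**Figure D1:**
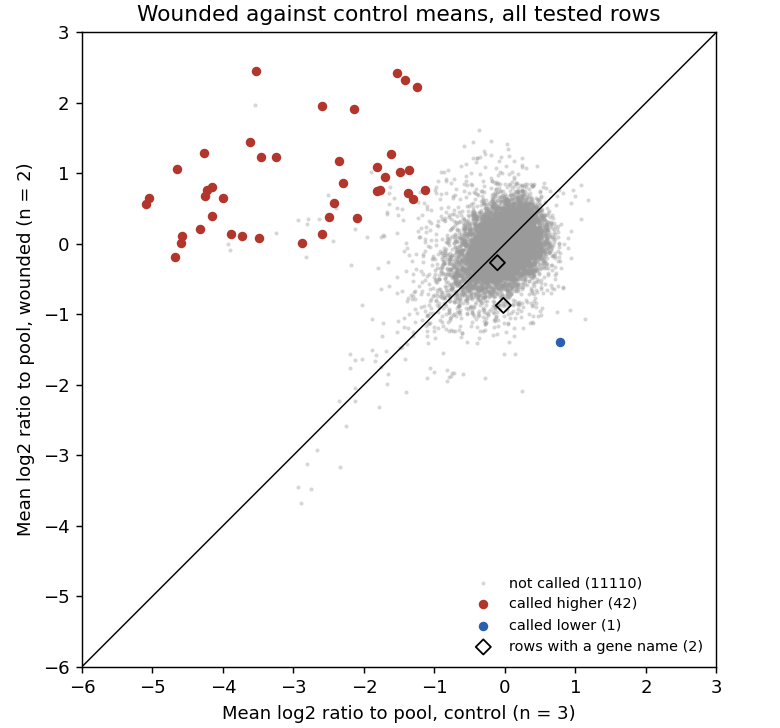
Each point is 1 of 11153 rows, with the mean log2 ratio to the pool over the 2 wounded arrays on the y axis and over the 3 control arrays on the x axis, and equality on the line. The 42 clones called higher lie at wounded means near or above the pool, with control means below it, and the 1 clone called lower stands alone at the lower right.

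The raised clones stood below the pool in control leaves and near or above it in wounded leaves. Their control means ran from -5.10 to -1.14, and 1 clone had a wounded mean under 0. On wounded array 1 the raised clones ran from -0.62 to 2.62 with a median of 0.73, and on wounded array 2 from -0.22 to 2.45 with a median of 0.77. On control arrays 1, 2 and 3 the medians were -3.58, -2.54 and -2.25, and the highest values -1.02, -0.83 and -0.30. So 40 and 39 of the 42 were above the array median on wounded arrays 1 and 2, and 0 on any control array. The groups did not overlap at any of the 42. The call chose clones for this difference, and the pool holds the same samples, so these counts add no separate support. Over all rows the arrays did not overlap at 20.3%, with wounded leaves higher at 10.8% and lower at 9.53%. The gap between the lowest wounded and the highest control value ran from 1.54 to 5.20 on the log2 scale, with a median of 2.98.

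**Figure D2:**
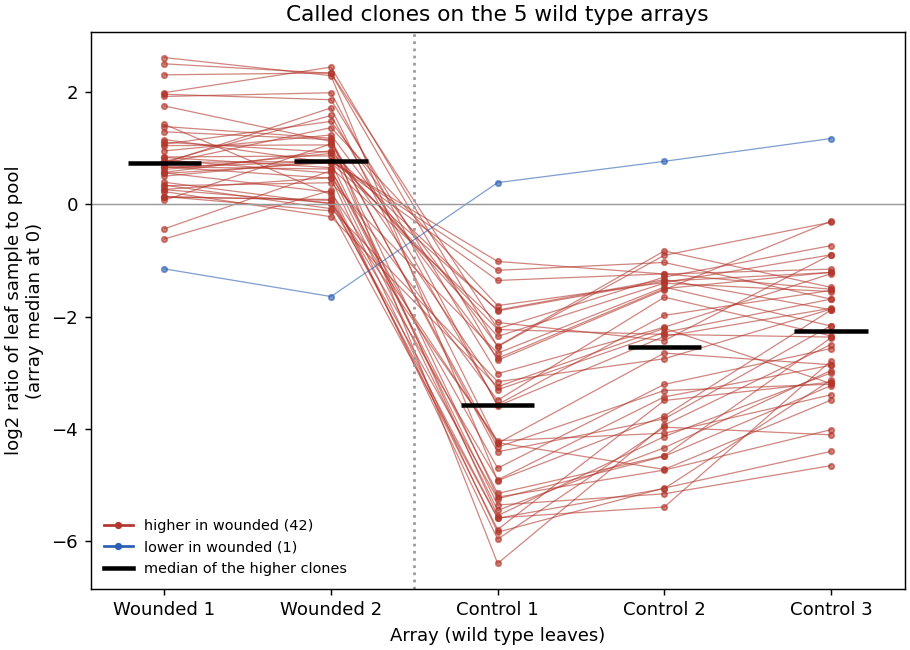
Each line joins the 5 values of 1 called clone, as log2 ratio to the pool with array medians at 0, and the bars are medians of the 42 higher clones. The higher clones sit between -0.62 and 2.62 on the wounded arrays and reach down to -6.40 on control array 1, while the lower clone runs the other way.

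The wounded arrays differed little from each other at these clones, and the control arrays differed more. The call itself favours clones with a small spread within the groups. The median SD over the 42 was 0.17 between the 2 wounded arrays and 0.84 between the 3 control arrays, against 0.20 and 0.34 over all rows. The control SD was the larger at 42 of 42, and at 68.9% of all rows. The wounded arrays lay within 2-fold of each other at 39 of the 42 clones, and the 3 control arrays at 10. Wounded array 1 was the higher of its pair at 21 clones, with a median difference between the wounded arrays of 0.01.

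The size of the rise depended on the control array it was measured against. Control array 1 held the lowest control value at 36 of the 42 clones, against 31.0% of all rows, and control array 3 the highest at 30, against 37.0%. The wounded mean exceeded control array 1 by a median of 4.77, control array 2 by 3.70 and control array 3 by 3.04. The part that the broader spread of control array 3 had in this was not tested. On the control arrays, clones at a low level had a wide spread. Over all 58 rows with a control mean more than 4-fold below the pool, the median control SD was 0.95. The uncalled ones among them are no neutral comparison, since the test leaves large rises uncalled where their spread is wide. The median control SD was 0.93 at the 29 raised clones whose control mean was more than 4-fold below the pool, 0.98 at the 29 uncalled clones as low, and 0.51 at the 13 raised clones with higher control means. On the wounded arrays, the 13 rows with a wounded mean that low had a median wounded SD of 0.25, against 0.20 over all rows.

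Clones cLED4L7 and cLET19N9 had the largest rises. Clone cLED4L7 stood at 2.62 and 2.29 on the wounded arrays, against -4.92, -3.77 and -1.88 on control arrays 1 to 3. Both wounded values were far above the pool, and the controls were spread over 3 units, with array 3 the least low. The change on the log2 scale was 5.98, with an SE of 0.70 and a limma adjusted p of 0.00777, and the 6 differences between a wounded and a control array ran from 4.17 to 7.54.

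Clone cLET19N9 was the more even of the pair. It stood at 1.05 and 1.06 in wounded leaves, against -5.21, -4.73 and -4.01 in control leaves, so the wounded arrays differed by 0.01 and the controls by little more than 1 unit. The rise of 5.71 on the log2 scale, 52.2-fold, had an SE of 0.37 and a limma adjusted p of 0.000271. The 6 differences between arrays ran from 5.06 to 6.27. With the sign turned, both clones are lower by these amounts.

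The raised clones differed in the level they reached in wounded leaves. In an equal pool of 10 samples, a transcript found at one level in the 5 wounded samples alone would stand at 1.00, and one found in the 2 wild type wounded samples alone at 2.32. Of the 42, 16 had a wounded mean over 1, with a median control mean of -2.25 and a median change of 4.01. The other 26 had a median control mean of -3.61 and a median change of 3.71. The clones that reached the higher wounded levels were thus less low in controls. The call itself favours this, since a clone with a lower wounded mean needs a lower control mean to pass. cLED4L7 stood near the second of these marks and cLET19N9 near the first. Whether either transcript was confined to those samples was not tested, and a level near a mark does not show it. The labels do not say whether the pool held equal parts.

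Clones with a wounded mean more than 2-fold above the pool were not all called. Over all rows, 52 had a wounded mean over 1, of which 36 were not called. The median control mean of these 36 was -0.28 and their median change 1.52, and 30 of them were at least 2-fold higher in wounded leaves. A control mean over 1 was found at 4 rows. In the other direction, 58 rows had a control mean more than 4-fold below the pool, of which 42 were more than 4-fold higher in wounded leaves and 14 were less than 2-fold higher or were lower. Of the 58, 10 also had a wounded mean more than 4-fold below the pool.

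The test called fewer clones than the sizes alone would list. Over all rows, 210 clones were at least 2-fold higher in wounded leaves (1.88% of rows) and 97 at least 2-fold lower (0.87%). At 4-fold the counts were 63 and 3, at 8-fold 35 and 0, at 16-fold 21 and 0, and at 32-fold 7 and 0. With the sign turned, each pair of counts changes places. Arrays did not overlap at 194 of the 210 higher clones and at 75 of the 97 lower ones, beside 10.8% and 9.53% of all rows. All 63 clones at least 4-fold higher had arrays that did not overlap. A choice by size of the difference itself favours such clones, so these counts add no separate support.

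**Figure D3:**
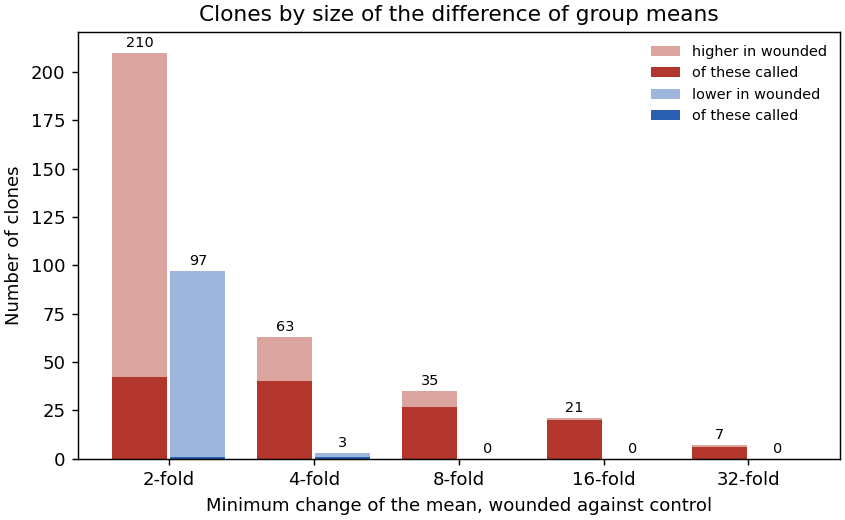
Bars give the number of clones whose mean in wounded leaves was higher (red) or lower (blue) than in control leaves by at least the fold on the x axis, with the called clones in the darker shade. Higher clones outnumber lower ones at each size, 210 against 97 at 2-fold and 35 against 0 at 8-fold.

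Of the 63 clones at least 4-fold higher, 23 were not called. Their median log2 change was 2.64, below the 3.90 of the called clones, and the largest was 5.52, with limma adjusted p between 0.0567 and 0.588. Their median SD was 0.52 between wounded arrays and 1.35 between control arrays, beside 0.17 and 0.84 at the called clones, a difference that the test itself selects for. All 23 had an unadjusted p under 0.05. Control array 1 was the lowest control at 19 of the 23, and control array 3 the highest at 16.

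Wounded leaves showed few and smaller decreases. The 1 called clone, cLEC11F15E, stood at -1.15 and -1.64 in wounded leaves, against 0.39, 0.77 and 1.17 in control leaves, so it was below the pool on both wounded arrays and above it on all controls. The change was -2.17 on the log2 scale (SE 0.33, adjusted p = 0.0261 by limma), a 4.50-fold fall, or a rise of that size with the sign turned. The largest decrease by mean, at cLED6H24, did not pass the test. That clone stood at -1.82 and -2.34 in wounded leaves, against -1.66, 0.33 and 2.05 in control leaves. Its control arrays spanned nearly 4 units and control array 1 was almost as low as wounded array 1. By limma its log2 change of -2.32 had an SE of 0.83 and an adjusted p of 0.746. The third clone at least 4-fold lower, cLET17K3, named after its values were seen, changed by -2.20 on the log2 scale (adjusted p = 0.267 by limma).

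The 97 clones at least 2-fold lower had a median change of -1.16. Their medians were -0.82 and -1.06 on wounded arrays 1 and 2, against -0.04, 0.27 and 0.70 on control arrays 1, 2 and 3. Of the 97, 82 had a control mean above 0 and 36 a wounded mean more than 2-fold below the pool. Control array 3 was the highest control at 59 of them, against 37.0% of all rows. The 210 clones at least 2-fold higher, chosen by the same size, had a median change of 1.56. Their medians were 0.46 and 0.78 on wounded arrays 1 and 2, against -1.38, -0.92 and -0.92 on control arrays 1, 2 and 3.

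The 2 rows with a gene name belong to photosynthesis, and neither passed the test. Carbonic_anhydrase, which speeds the exchange between carbon dioxide and bicarbonate and is abundant in chloroplasts, stood at -0.26 and -0.28 in wounded leaves, against -0.13, -0.25 and 0.06 in control leaves. The change of -0.16 on the log2 scale had an SE of 0.27 (adjusted p = 0.999 by limma), and wounded array 1 minus control array 2 came to -0.00174. Chlorophyla/bbindingprotein, named for the light-harvesting protein that holds chlorophyll in the thylakoid membrane, stood at -1.15 and -0.60 in wounded leaves, against 0.29, -0.31 and -0.04 in control leaves. The arrays did not overlap, and the log2 change was -0.85 (SE 0.32, unadjusted p = 0.0234, adjusted p = 0.783 by limma). With the sign turned, the changes are 0.16 and 0.85 upward.

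The raised clones were unevenly spread over the clone-name prefixes. Apart from rows named by an EST number, the prefix names the cDNA library a clone was picked from. As background from the public naming of tomato clones and not from the labels, cLED stands for an ovary library, cLET for a library of leaves treated with a mix of elicitors, and cLEC for a callus library. Of 2512 cLED rows, 25 were called, 0.995%, and of 973 cLET rows, 8, or 0.822%, beside 0.386% of all rows. Together cLED and cLET made up 31.2% of the rows and held 33 of the 43 calls, all higher. This pairing was not part of the plan, which took each prefix alone. Of 2212 cLEC rows, 5 were called, 0.226%, among them the only lower one. The remaining calls were single clones of 5 other prefixes. No call fell in 9 of the 17 prefixes with at least 50 rows, which include cLEG with 881 rows, cLER with 811 and cLEM with 779. These shares were not tested, since rows of a library can be copies of the same gene.

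**Figure D4:**
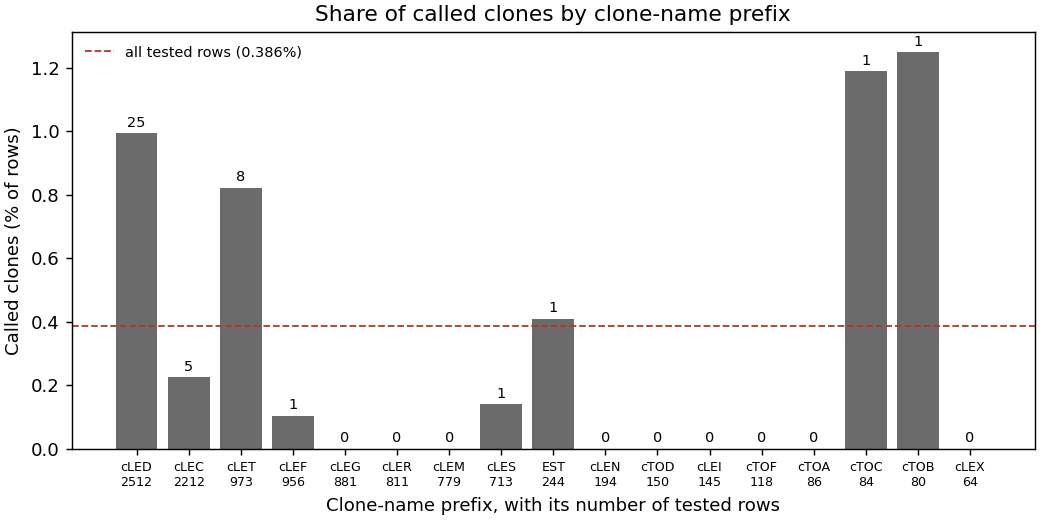
Bars give the called clones as a percentage of the rows of each clone-name prefix with at least 50 rows, with the number called above each bar and the number of rows under each prefix. cLED and cLET stand at 0.995% and 0.822%, above the dashed line for all rows. The bars of cTOC and cTOB are higher, at 1.19% and 1.25%, with 1 clone each.

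Of the prefixes with several raised clones, cLET had the lowest levels in controls. Their median wounded mean was 0.72 and their median control mean -4.26, with log2 changes from 2.87 to 5.71 and a median of 4.97. The raised cLED clones had nearly the same median wounded mean, 0.72, and a median control mean of -2.42, with changes from 1.89 to 5.98 and a median of 3.47. The 4 raised cLEC clones had a median change of 3.92. Over the 17 prefixes, the median change of all rows of a prefix lay between -0.05 and 0.11.

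How many clones passed depended on single arrays, on either side of the comparison. Without wounded array 1 the count of calls was 4 and without wounded array 2 it was 6, in fits that leave 1 wounded array, assumed to vary like the controls. Without control array 3 it was 85 (84 higher and 1 lower), and without control arrays 1 and 2 it was 39 and 48. Lower calls numbered 4 without control array 1, 2 without control array 2 and 0 without either wounded array. The 42 raised clones were higher in all 5 of these fits, which had to follow because their groups did not overlap. Their median changes ran from 3.34 to 4.28. Quantile normalization gave 60 higher and 15 lower calls, of which 41 were among the 42.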

How the data were processed

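The deposited values, 11347 rows on 10 arrays with 0 missing values, were log2 ratios made by the authors. This was read from the values: on each of the 5 arrays 99.7% to 100.0% were the log2 of a ratio with 3 decimals (tolerance 2e-05). Background correction, scaling, image software and dyes are not given in the sources used for this work. The 193 rows named as failed and the 1 blank row were left out, and each array's median over the other 11153 was set to 0. Wounded minus control was fitted on the 5 wild type arrays with limma 3.58.1 (lmFit, eBayes, R 4.3.3), two-sided, with 3 residual and 6.43 prior degrees of freedom. Called means a Benjamini-Hochberg adjusted p under 0.05 over all tested rows. For 1 clone, an exact permutation test of 2 against 3 arrays could not go below p = 0.1. Named are the 2 clones of largest change each way whose arrays do not overlap (called ones first), and rows with a gene name. The arrays, lists and tests were chosen with earlier results of these data known. The fit was tested on simulated data. The alternatives were no centring, quantile and scale normalization, array weights, trend and robust eBayes, all 10 arrays, a replicate block, a looser threshold of 0.1 on the adjusted p, a 2-fold minimum change, the failed rows kept, and each array left out. Plots used matplotlib 3.10.9.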

Additional observations from a re-analysis of the deposited data

How the results depend on the processing

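The 43 calls (42 higher, 1 lower) became 75 with quantile normalization (15 lower), 20 with scale normalization (19 higher), 93 with array weights (90 higher, 3 lower), 21 with trend and robust eBayes (20 higher), and 17 with a minimum change of 2-fold (17 higher, 0 lower). A fit to all 10 arrays gave 30 calls, 0 of them lower, and 23 were among the 42. Leaving out 1 array at a time gave 4 to 85 calls, 4 to 84 higher and 0 to 4 lower. It gave 328 to 509 clones with a mean change of at least 2-fold, of which 295 to 495 had arrays that did not overlap. Causes were not tested. Deviations from the group means correlated at -0.11 between the arrays of number 1 and -0.35 between those of number 2. The deviations of 2 wounded arrays mirror each other, so these values cannot show whether equal numbers mark paired arrays. A replicate block gave 160 calls, 143 higher and 17 lower, with 1 residual degree of freedom and an infinite prior; it leaves control array 3 without weight in the change. Of 60 values of named rows under other settings, 57 kept their side of the threshold. The call of cLEC11F15E was lost with all 10 arrays (adjusted p = 0.0788) and with a minimum change (0.701), and cLED6H24 passed with the block (0.0381). With 1 array left out, 26 of 30 kept it, and cLED4L7 and cLEC11F15E lost their calls without either wounded array. No named row changed sign. With 1 array left out this had to follow, because the groups did not overlap at any named row. With the failed rows kept, 0 of 193 passed, 8 had an unadjusted p under 0.05, and 42 clones were called.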

Other observations

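Clone names also give the plate and well of the source library, which the comparison did not use. The grouping by plate was chosen after the called clones were seen, so it has no test. Plates cLED4, cLED5 and cLED6 held 6, 4 and 4 called clones of 267, 239 and 338 rows. Together these plates made up 7.57% of the rows and held 14 of the 43 calls, 1.66% of their rows, against 0.659% of the rows of other cLED plates and 0.386% of all rows. The median change over all rows of each of these plates lay between -0.05 and -0.02. Calls fell on 30 of 449 plates.

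Some called clones came from neighbouring wells. Of 3430 pairs of rows in adjoining columns of the same plate row, 2 were pairs of raised clones, and 23 held 1 called and 1 uncalled clone. The uncalled neighbours of raised clones had a median log2 change of -0.06. Across the 3430 pairs the changes correlated at Pearson's r = 0.09, and at 0.07 over the 3405 pairs without a call, as a description over pairs that share arrays and plates. Whether neighbouring wells hold the same cDNA is not given in the sources used here.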
